A study of Homo sapiens with 9 samples.

Results

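Cells import most of the amino acids they use through carriers of the solute carrier (SLC) families, and 10 genes of such carriers were followed across the siRNA groups: SLC7A5, SLC3A2, SLC7A11, SLC7A1, SLC1A4, SLC1A5, SLC38A1, SLC38A2, SLC6A9 and SLC43A1. They were picked by symbol from the 23368 rows of the count table, with earlier results of these data known. All 10 were present, none was without counts in every library, and all 10 were among the 13648 genes that passed the filter on low counts and were tested. The study comes from a search for genes that EWS-FLI1 positive Ewing sarcoma cells need, and its RNA sequencing set siRNA against LRWD1 beside scrambled siRNA in A673 cells. LRWD1 encodes a protein that binds the origin recognition complex of DNA replication. A673 is an established Ewing sarcoma cell line that carries the EWS-FLI1 fusion.

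The 9 libraries formed 3 groups of 3: cells with siLRWD1-6, cells with siLRWD1-5 and cells with a scrambled siRNA. The siLRWD1 molecules are different siRNAs against the same transcript, and their sequences were not used here. All groups received siRNA at 13 nM by reverse transfection and were harvested after 48 h in independent experiments. All were kept in high-glucose medium with serum, added L-glutamine, penicillin and streptomycin, zeocin and blasticidin, so every group had an external glutamine supply. The groups are therefore models of 1 cell line in rich medium.

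The carriers differ in what they move. SLC7A5 (LAT1) exchanges large neutral amino acids such as leucine, and SLC7A11 (xCT) brings in cystine for glutathione synthesis in exchange for glutamate. Both are light chains that reach the plasma membrane only when joined to the heavy chain SLC3A2 (4F2hc, also called CD98). SLC7A1 (CAT1) carries arginine and lysine without a heavy chain, SLC43A1 (LAT3) carries branched-chain amino acids without one, SLC1A5 (ASCT2) and SLC1A4 (ASCT1) exchange small neutral amino acids including glutamine or serine, SLC38A1 and SLC38A2 (SNAT1 and SNAT2) take up glutamine and alanine with sodium, and SLC6A9 (GLYT1) takes up glycine. Several of these genes are known targets of ATF4, the transcription factor whose translation increases when amino acids run short. ATF4 joins C/EBP proteins at a composite DNA element, the C/EBP-ATF response element, whose core letters are TGATGNAA.

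These core letters were looked for on both strands of 300-base promoter windows (250 bases before to 50 after an annotated start site, RefSeq, GRCh38.p14), because 8 of the 10 genes moved together with 1 siRNA. Of the 10 genes, 9 matched the table, with 16 windows, and SLC7A11 did not. TGATGNAA was found in windows of 5 of these 9 genes, or 5 of the 16 windows, and in 3.62% of all 35116 windows or 4.46% of all 27305 genes. The genes and the motif were chosen with earlier results of these data known, and several of the genes are known ATF4 targets. Whether ATF4 acts through these matches was not tested. Of the genes with a match, SLC1A4, SLC1A5, SLC38A1 and SLC7A1 rose with siLRWD1-6 and SLC3A2 was not called. Of those without a match, SLC38A2, SLC6A9 and SLC43A1 rose and SLC7A5 was not called. The matches are in capitals, each inside 30 bases read 5′ to 3′ along the gene's strand, so that the reverse complement appears for SLC1A4 and SLC3A2. They lie at chr2:64989381-64989410 (plus strand) for SLC1A4, chr19:46784893-46784922 (minus strand) for SLC1A5, chr12:46266502-46266531 (minus strand) for SLC38A1, chr13:29595663-29595692 (minus strand) for SLC7A1 and chr11:62881719-62881748 (plus strand) for SLC3A2.
SLC1A4: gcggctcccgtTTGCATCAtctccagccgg
SLC1A5: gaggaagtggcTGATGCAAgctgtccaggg
SLC38A1: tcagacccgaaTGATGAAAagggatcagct
SLC7A1: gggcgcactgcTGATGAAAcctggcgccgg
SLC3A2: gtaatgtgcaggactccTTACATCAgctcc

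Counting the first transcribed base as 1, the match began at -7 in SLC1A4, -97 in SLC1A5, -4 in SLC38A1, 8 in SLC7A1 and 38 in SLC3A2. The windows of SLC1A4, SLC1A5, SLC38A1 and SLC3A2 belong to 1 of several annotated start sites of each gene, and which start site A673 cells use was not tested. A match describes letters and not binding, and the genes without a match may hold the element outside these windows. The E-box CACGTG, the sequence bound by MYC, is shown for comparison, as MYC is known to raise transcription of some of these carriers. It was found in 3 of the 9 genes and in 8.77% of all genes, at chr16:87869620-87869649 (minus strand) for SLC7A5, chr11:57515797-57515826 (minus strand) for SLC43A1 and chr19:46787326-46787355 (minus strand) for SLC1A5.
SLC7A5: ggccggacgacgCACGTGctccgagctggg
SLC43A1: cagcgggcgagtCACGTGcgcgtgaaactc
SLC1A5: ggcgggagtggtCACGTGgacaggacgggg

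The core TGACNNNGC of the antioxidant response element, bound by NRF2, was present in windows of SLC7A1, SLC7A5, SLC3A2 and SLC1A5, against 16.1% of all genes. No matches of these motifs in the 9 genes searched overlapped each other.

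The libraries held between 11971179 and 15674452 counted reads. LRWD1 averaged 7.74 ± 1.05 CPM with siLRWD1-6, 10.8 ± 0.497 CPM with siLRWD1-5 and 51.0 ± 3.13 CPM with scrambled siRNA (CPM, the read count scaled to the library size after TMM normalisation; SD, n = 3 each), so the targeted transcript was low in every siRNA library. Of 12 Ewing sarcoma markers, 11 were tested. NKX2-2 averaged 28.7 ± 2.14 CPM with siLRWD1-6, 21.0 ± 1.78 CPM with siLRWD1-5 and 30.5 ± 1.53 CPM with scrambled siRNA (SD, n = 3 each). CD99, a defining surface marker, had no count in 8 of the 9 libraries and 50 reads in siLRWD1-5 replicate 2. What caused these empty counts was not tested, so they do not show that the cells lack the transcript. The summed level of the 12 markers was 3448 to 3685 CPM with siLRWD1-6, 2754 to 3111 CPM with siLRWD1-5 and 3705 to 4670 CPM with scrambled siRNA, with 0 called higher and 1 lower with siLRWD1-6 and 7 lower with siLRWD1-5, where 7.78% and 20.3% of all tested genes were lower. CCND1 made up most of each sum, so the sums mainly follow that gene. It averaged 1941 CPM with siLRWD1-6, 1652 CPM with siLRWD1-5 and 2391 CPM with scrambled siRNA. Leaving out scrambled replicate 2 gave 3 markers higher and 1 lower with siLRWD1-6, and 7 lower with siLRWD1-5. Of 13868 genes tested then, 2115 were higher and 1838 lower with siLRWD1-6, and 3326 higher and 3464 lower with siLRWD1-5. Of 23 markers of other cell types, 5 had no count in any library (CD3E, KRT19, MYOD1, MYOG and HBB) and 6 were expressed enough to be tested. Their summed level was 1689 to 2566 CPM with siLRWD1-6, 846 to 1181 CPM with siLRWD1-5 and 1010 to 1247 CPM with scrambled siRNA, and COL1A1, a collagen gene, averaged 2090 ± 441 CPM with siLRWD1-6, 839 ± 179 CPM with siLRWD1-5 and 1040 ± 145 CPM with scrambled siRNA. The part of these shifts in the results was not tested. Replicates of a group differed by a chi-square per gene of 2.98 to 5.45, except for scrambled replicate 2, at 28.4 and 24.2 against its fellow scrambled libraries. Results that rest on that library are given with and without it. In RNA from a whole culture, a lower level in each cell and fewer cells that express a gene cannot be told apart.

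siLRWD1-6 against scrambled siRNA asked which carriers one molecule changed. Of the 10 genes, 8 were higher and 0 lower (adjusted p under 0.05), where 16.6% of all tested genes were called, 8.81% higher and 7.78% lower. SLC6A9 and SLC7A11 rose most, 2.32-fold and 2.22-fold, and SLC1A4, SLC1A5, SLC7A1, SLC38A2, SLC38A1 and SLC43A1 rose between 1.36-fold and 1.64-fold. SLC7A5 and SLC3A2, the partners of the leucine exchanger, did not pass. In the same 8 genes the 3 siLRWD1-6 libraries lay above the 3 scrambled libraries, which was true of 16.4% of all tested genes. The median log2 fold change of the 10 was 0.53, against -0.02 over all tested genes.

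siLRWD1-5 against scrambled siRNA asked the same of the other molecule. SLC38A1, SLC7A1 and SLC43A1 fell, 1.88-fold, 1.86-fold and 1.55-fold, and 0 of the 10 rose. Of all tested genes, 38.8% were called in this comparison, 18.5% higher and 20.3% lower, so 3 of 10 lower is near the background. In 4 genes, these 3 and SLC38A2, the siLRWD1-5 libraries lay below the scrambled ones, which held for 24.6% of all tested genes. The other 7 genes were not called, with log2 fold changes from -0.27 for SLC38A2 to 0.11 for SLC3A2. The median of the 10 was -0.02, against -0.01 over all tested genes.

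siLRWD1-6 against siLRWD1-5 set the molecules against each other directly. The same 8 genes that rose with siLRWD1-6 were higher than with siLRWD1-5, and 0 were lower, where 43.4% of all tested genes were called, 22.4% higher and 20.9% lower. SLC7A1 and SLC38A1 differed most, 2.71-fold and 2.63-fold, followed by SLC6A9 (2.24-fold), SLC7A11 (2.20-fold) and SLC43A1 (2.11-fold). In all 10 genes the siLRWD1-6 libraries lay above the siLRWD1-5 libraries, which held for 30.7% of all tested genes. These 3 comparisons share libraries, so their values stand side by side and are not independent of each other.

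**Figure D1:**
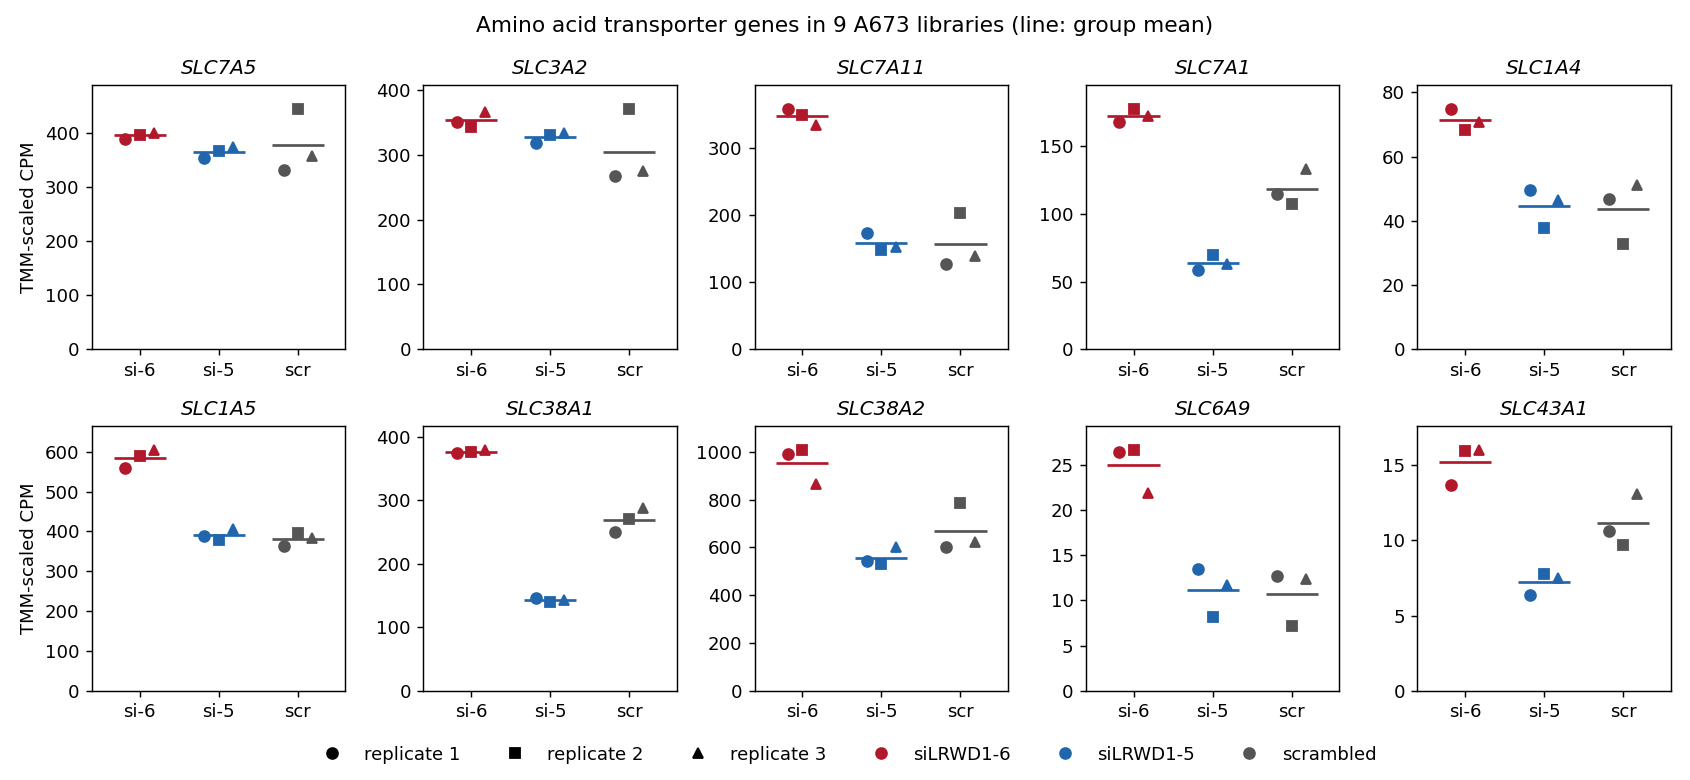
TMM-scaled CPM of the 10 transporter genes in each of the 9 libraries, with siLRWD1-6 (si-6), siLRWD1-5 (si-5) and scrambled siRNA (scr) from left to right; the symbol gives the replicate number and the line the mean of 3 libraries. SLC7A11, SLC1A4, SLC1A5 and SLC6A9 are high with siLRWD1-6 alone, SLC7A1, SLC38A1 and SLC43A1 differ between all 3 groups, and for SLC7A5 and SLC3A2 scrambled replicate 2 is the highest library and scrambled replicate 1 the lowest.

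**Figure D2:**
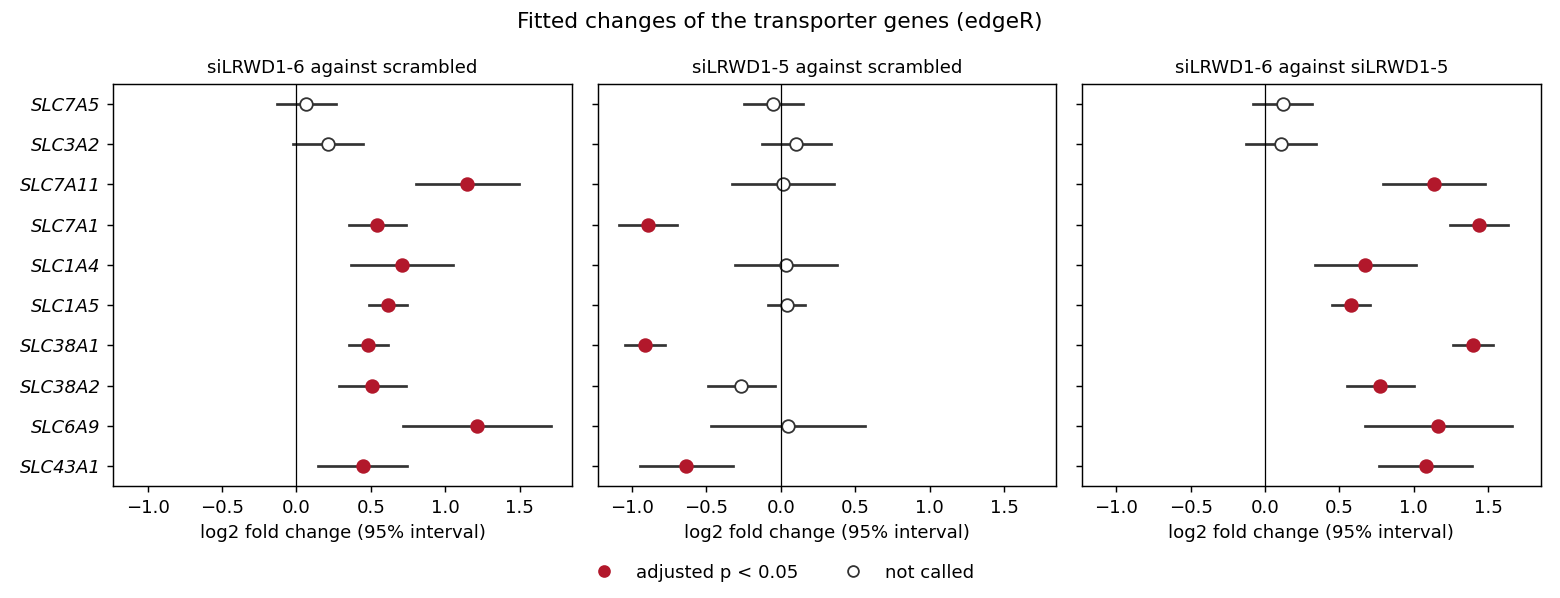
Log2 fold changes of the 10 genes with 95% intervals from the edgeR fit, for siLRWD1-6 against scrambled, siLRWD1-5 against scrambled and siLRWD1-6 against siLRWD1-5; filled points passed the adjusted threshold of 0.05. The points of SLC7A5 and SLC3A2 stay near 0 in each panel, whereas SLC38A1 and SLC7A1 lie above 0 with siLRWD1-6 and below 0 with siLRWD1-5.

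Of the heavy chain and its 2 light chains among the 10, only SLC7A11 passed the test with siLRWD1-6. SLC3A2, the heavy chain, had 349.8, 342 and 366 CPM with siLRWD1-6, 318, 329 and 334 CPM with siLRWD1-5, against 267, 370.2 and 275 CPM with scrambled siRNA. SLC7A5, the light chain that moves leucine, had 388, 396 and 399.9 CPM with siLRWD1-6, 353, 365 and 373 CPM with siLRWD1-5, against 330.2, 443 and 356 CPM with scrambled siRNA. For both genes scrambled replicate 2 was the highest of the 9 libraries, and the scrambled libraries enclosed all siRNA libraries. The 95% interval of the log2 fold change with siLRWD1-6 was -0.13 to 0.27 for SLC7A5 (adjusted p = 0.67) and -0.02 to 0.45 for SLC3A2 (adjusted p = 0.20), and with siLRWD1-5 it was -0.25 to 0.15 (adjusted p = 0.70) and -0.13 to 0.34 (adjusted p = 0.46). Without scrambled replicate 2 both genes were called higher with siLRWD1-6, SLC7A5 by 0.21 (adjusted p = 0.0069) and SLC3A2 by 0.39 (adjusted p = 1.7e-05) on the log2 scale. Without it all 10 genes were called higher with siLRWD1-6, where 2115 of 13868 genes were called higher. SLC3A2 was then also called higher with siLRWD1-5, by 0.27 (adjusted p = 0.00041).

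SLC7A11, the cystine light chain, had 359, 349 and 334 CPM with siLRWD1-6, 173, 148 and 153 CPM with siLRWD1-5, against 127, 203 and 139.8 CPM with scrambled siRNA. The siLRWD1-6 libraries stood clear of the other 6, among which siLRWD1-5 and scrambled overlapped. The log2 fold change was 1.15 with siLRWD1-6 (SE 0.15, adjusted p = 0.0011), 0.01 with siLRWD1-5 (SE 0.15, adjusted p = 0.95) and 1.14 between them (SE 0.15, adjusted p = 0.0003). It ranked 60th from the top of the 13648 log2 fold changes with siLRWD1-6. When scrambled replicate 2, its highest scrambled library, was left out, the value was 1.39 with siLRWD1-6, and SLC7A11 was called higher with siLRWD1-5, by 0.24 (adjusted p = 0.0063). Reads of SLC7A11-AS1, an antisense gene that shares exon bases with SLC7A11 in the GENCODE annotation, cannot be told apart without strand.

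SLC7A1, the arginine and lysine carrier, had 168, 178 and 172 CPM with siLRWD1-6, 58.5, 69.7 and 63.1 CPM with siLRWD1-5, against 115, 107 and 134 CPM with scrambled siRNA. The 3 groups did not overlap. The log2 fold change was 0.54 with siLRWD1-6 (SE 0.09, adjusted p = 0.0017), -0.89 with siLRWD1-5 (SE 0.09, adjusted p = 1.9e-05) and 1.44 between them (SE 0.09, adjusted p = 5e-07). SLC7A1 thus moved in opposite directions with the siRNAs, and its difference between them ranked 178th from the top of all tested genes.

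Both sodium-coupled glutamine and alanine carriers rose with siLRWD1-6, and SLC38A1 fell with siLRWD1-5. SLC38A1 had 374, 376 and 378 CPM with siLRWD1-6, 146, 139.8 and 143 CPM with siLRWD1-5, against 249.8, 269 and 288 CPM with scrambled siRNA, 3 levels with no overlap. Its log2 fold change was 0.48 with siLRWD1-6 (SE 0.06, adjusted p = 0.00033), -0.91 with siLRWD1-5 (SE 0.06, adjusted p = 1e-06) and 1.40 between them (SE 0.06, adjusted p = 4.2e-08). SLC38A2, the member of the pair known to be induced by amino acid shortage, had 991, 1007 and 864 CPM with siLRWD1-6, 543, 529 and 601 CPM with siLRWD1-5, against 603, 786 and 622 CPM with scrambled siRNA. It rose with siLRWD1-6 (log2 ratio 0.51, SE 0.10, adjusted p = 0.0069). With siLRWD1-5 its libraries lay just under the scrambled ones but the change of -0.27 missed the threshold (SE 0.10, adjusted p = 0.061). That change was called without scrambled replicate 1 (-0.34, adjusted p = 0.032) and was -0.14 without scrambled replicate 2 (adjusted p = 0.10).

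SLC1A5, the main glutamine exchanger, had 559, 589 and 604 CPM with siLRWD1-6, 389, 379 and 405 CPM with siLRWD1-5, against 363, 395 and 384 CPM with scrambled siRNA. It rose with siLRWD1-6 (log2 ratio 0.62, SE 0.06, adjusted p = 4.2e-05), and the interval of its change with siLRWD1-5 was -0.09 to 0.16. SLC1A4, its relative that prefers alanine, serine and cysteine, had 74.8, 68.4 and 70.8 CPM with siLRWD1-6, 49.6, 37.8 and 46.5 CPM with siLRWD1-5, against 46.7, 32.7 and 51.3 CPM with scrambled siRNA. Both genes were thus high in the siLRWD1-6 libraries, and siLRWD1-5 and scrambled overlapped. SLC1A4 rose with siLRWD1-6 (log2 ratio 0.71, SE 0.15, adjusted p = 0.011) and its interval with siLRWD1-5, -0.31 to 0.38, was wide. Without scrambled replicate 2, the lowest SLC1A4 library, its rise with siLRWD1-6 was 0.56 (adjusted p = 0.00014).

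SLC6A9, the glycine carrier, had 26.5, 26.7 and 21.9 CPM with siLRWD1-6, 13.5, 8.15 and 11.8 CPM with siLRWD1-5, against 12.7, 7.13 and 12.3 CPM with scrambled siRNA. The siLRWD1-6 libraries were the highest, and in the other groups replicate 2 was the lowest. With all libraries, its log2 fold change with siLRWD1-6 was the largest of the 10 (1.21, SE 0.22, adjusted p = 0.0051) and ranked 48th of all tested genes, whereas with siLRWD1-5 the interval was -0.47 to 0.57. Without scrambled replicate 2, its lowest scrambled library, the value with siLRWD1-6 was 1.01 (adjusted p = 0.00011). SLC7A11, at 1.39, was then the largest of the 10. It shares exon bases with CCDC24, which averaged 3.56 ± 0.528 CPM with siLRWD1-6, 7.61 ± 0.757 CPM with siLRWD1-5 and 4.44 ± 0.195 CPM with scrambled siRNA (SD, n = 3 each).

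SLC43A1, the branched-chain carrier that needs no heavy chain, had 13.7, 15.9 and 16 CPM with siLRWD1-6, 6.36, 7.78 and 7.47 CPM with siLRWD1-5, against 10.6, 9.72 and 13.1 CPM with scrambled siRNA. The 3 groups did not overlap. It fell with siLRWD1-5 (log2 ratio -0.63, SE 0.14, adjusted p = 0.0048) and was higher with siLRWD1-6 than with siLRWD1-5 (1.08, SE 0.14, adjusted p = 1e-04). Its rise with siLRWD1-6 against scrambled only just passed (0.44, SE 0.14, adjusted p = 0.045). That call was lost in 10 of 18 alternative settings, among them leaving out any siLRWD1-6 library. Over all 18 the log2 fold change lay between 0.33 and 0.57 (adjusted p from 0.021 to 0.14).

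Scrambled replicate 2 stood apart in the carriers as well, and in both directions. Relative to the mean of the other scrambled libraries, its log2 difference was 0.61 for SLC7A11, 0.45 for SLC3A2, 0.37 for SLC7A5 and 0.36 for SLC38A2. It was -0.81 for SLC6A9, -0.59 for SLC1A4, -0.29 for SLC43A1 and -0.21 for SLC7A1, and close to 0 for SLC1A5 (0.08) and SLC38A1 (0.0023). The last pair, SLC1A5 and SLC38A1, therefore had the tightest scrambled libraries, 381 ± 16.3 and 269 ± 19.2 CPM (SD, n = 3 each).

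To compare levels between genes, CPM was divided by the merged exon length of protein-coding transcripts in GENCODE v29 (GRCh38), 2.654 kb for SLC3A2 to 9.645 kb for SLC7A11. On this scale SLC38A2 was the most abundant with siLRWD1-6, at 191 ± 15.6 CPM per kb, next to SLC1A5 at 175 ± 6.92, and these neighbours overlapped in their spread. In scrambled cells SLC38A2 (134 ± 20.0 CPM per kb), SLC3A2 (115 ± 21.6) and SLC1A5 (114 ± 4.89) led, and SLC7A5 followed at 82.1 ± 12.9. Among these leaders SLC3A2 overlapped SLC38A2 and SLC1A5, whereas the SLC38A2 libraries (120.5 to 156.9) lay above the SLC1A5 libraries (109 to 118.6). With siLRWD1-5 the leaders were SLC3A2 (123 ± 3.04), SLC1A5 (117 ± 3.96) and SLC38A2 (111 ± 7.63), whose neighbours in this order overlapped. SLC38A1, SLC7A11, SLC7A1 and SLC1A4 formed a middle range, from 15.2 to 40.3 CPM per kb with siLRWD1-6, 8.68 to 16.4 with siLRWD1-5 and 9.28 to 28.9 with scrambled siRNA. Within it SLC38A1 stood above SLC7A11 in every library pair with siLRWD1-6 and with scrambled siRNA, and overlapped it with siLRWD1-5. SLC6A9 and SLC43A1 were the lowest in all groups, at 5.80 ± 0.622 and 5.62 ± 0.493 with siLRWD1-6, 2.58 ± 0.631 and 2.66 ± 0.275 with siLRWD1-5, and 2.49 ± 0.722 and 4.13 ± 0.651 with scrambled siRNA (SD, n = 3 each). With coding length in place of exon length, a choice added after the values were seen, SLC38A2 came first in every group and SLC6A9 and SLC43A1 stayed last, whereas SLC3A2 moved to place 6 with siLRWD1-6, 4 with siLRWD1-5 and 5 with scrambled siRNA.

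Reads of SLC7A5 and its pseudogene copies SLC7A5P1 and SLC7A5P2 may have been split in counting; the copies held under 2 CPM in each group. The mix of light chains open to SLC3A2 was described per kb over SLC7A5, SLC7A11, SLC7A6, SLC7A7 and SLC7A8, without a test because it was chosen after the values were seen. SLC7A11 made up 24.1 ± 1.07% of these transcripts with siLRWD1-6, 14.6 ± 1.54% with siLRWD1-5 and 13.2 ± 1.34% with scrambled siRNA. SLC7A5 made up 57.6 ± 0.511% with siLRWD1-6, 70.8 ± 0.95% with siLRWD1-5 and 67.4 ± 0.498% with scrambled siRNA. The shift towards the cystine light chain with siLRWD1-6 thus lay outside the range of the other groups. With coding lengths the SLC7A11 share was 38.5%, 25.8% and 23.2% for the same groups as listed, so the size of the share depends on the length used but its order does not. The summed light chains came to 1.13 ± 0.0432 times the heavy chain with siLRWD1-6, 0.909 ± 0.00745 times with siLRWD1-5 and 1.07 ± 0.0412 times with scrambled siRNA. With coding lengths these ratios were 3.23, 2.36 and 2.78, in the same order. With exon lengths the siLRWD1-6 and scrambled libraries overlapped (1.09 to 1.17 and 1.02 to 1.11). With coding lengths they did not (3.10 to 3.36 and 2.70 to 2.87).

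In the sodium-coupled pair, SLC38A2 exceeded SLC38A1 4.73 ± 0.409 times per kb with siLRWD1-6, 7.27 ± 0.482 times with siLRWD1-5 and 4.65 ± 0.717 times with scrambled siRNA (SD, n = 3 each). The siLRWD1-5 libraries, 6.94 to 7.83, lay above all others. SLC1A5 exceeded SLC1A4 11.6 ± 0.904 times with siLRWD1-6, 12.5 ± 1.56 times with siLRWD1-5 and 12.8 ± 3.63 times with scrambled siRNA, which overlapped.

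**Figure D3:**
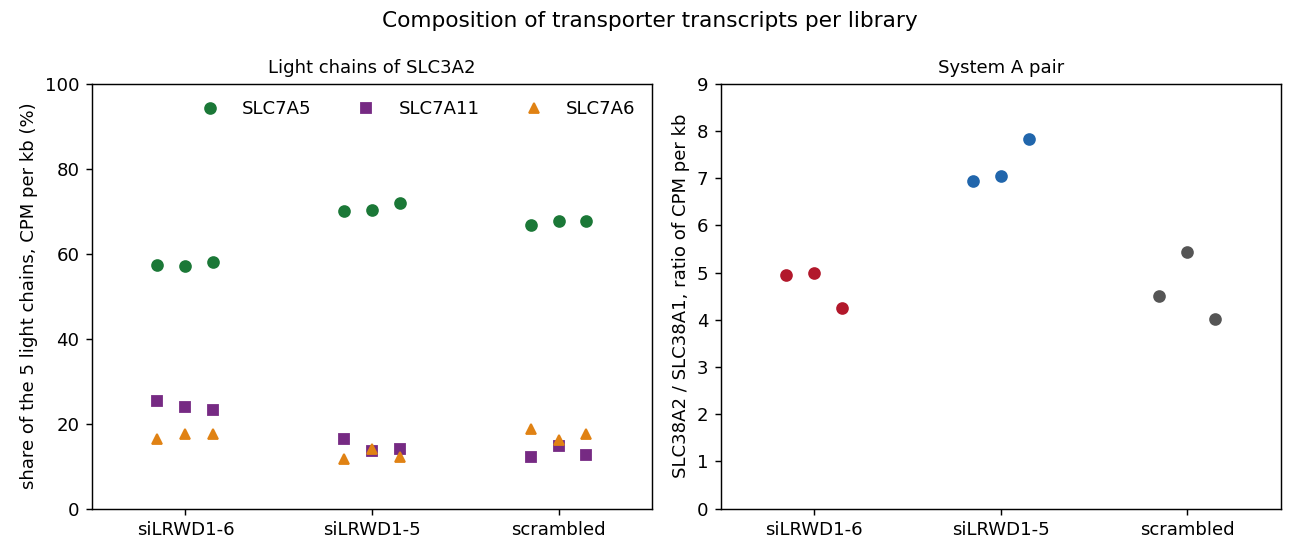
Left, the share of SLC7A5, SLC7A11 and SLC7A6 in the summed CPM per kb of 5 light chains of SLC3A2, in percent; right, the ratio of SLC38A2 to SLC38A1 in CPM per kb. Each point is 1 library, with siLRWD1-6, siLRWD1-5 and scrambled siRNA from left to right; the SLC7A11 share is highest with siLRWD1-6 (23.1% to 25.2%) and the SLC38A2 ratio is highest with siLRWD1-5 (6.94 to 7.83).

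Across the 9 libraries the carriers followed a few patterns, given as descriptions because the libraries share groups and depth. SLC7A1 ran closest to SLC38A1 (Pearson r = 0.986 of log2 CPM) and SLC43A1 (0.985), SLC1A4 to SLC6A9 (0.983), and SLC7A11 to SLC1A5 (0.960). SLC7A5 and SLC3A2 went together (0.865), and SLC7A5 had the lowest r of all pairs with SLC1A4 (-0.020). Of 10888 other genes with a mean of at least 5 CPM, the 5 whose profile was most like the mean profile of the carriers were SND1 (0.991), CITED2 (0.989), SPOPL (0.988), WARS, the cytosolic tryptophanyl-tRNA synthetase (0.986), and NR3C2 (0.985).

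Of 47 further genes for transport across the plasma membrane or vesicle and lysosome membranes, 11 had no count and 23 were tested. With siLRWD1-6, 1 was higher and 2 lower, 20 did not pass, and the median log2 fold change was -0.06. This is near the 8.81% higher and 7.78% lower among all tested genes. SLC1A1, a glutamate and cysteine carrier, rose 1.44-fold with siLRWD1-6 and 1.46-fold with siLRWD1-5 (adjusted p = 0.0096 and 0.0030). SLC36A1, a lysosomal proton-coupled carrier, was 1.64-fold lower with siLRWD1-6 (adjusted p = 0.00016). SLC17A7, a vesicular glutamate carrier, was 2.53-fold lower with siLRWD1-6 (adjusted p = 0.018). Its counts were low, at 0.865 ± 0.254 CPM with siLRWD1-6 and 2.25 ± 0.514 CPM with scrambled siRNA (SD, n = 3 each). Leaving out scrambled replicate 2 gave 4 higher and 3 lower, where 2115 of 13868 genes were higher and 1838 lower.

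With siLRWD1-5 the same list had 8 higher and 1 lower of 23, with a median of 0.31. Of all tested genes, 38.8% were called here, 18.5% higher and 20.3% lower. The total called in the list was near that background, but its calls were mostly higher. SLC43A2 (LAT4), a relative of SLC43A1, averaged 3.49 ± 0.212 CPM with siLRWD1-5 and 1.14 ± 0.342 CPM with scrambled siRNA (3.00-fold, adjusted p = 0.00038). SLC36A1 rose 1.42-fold and SLC38A10 rose 1.40-fold. SLC7A6, a heavy-chain partner that exchanges arginine for neutral amino acids, fell to 89.5 ± 10.4 CPM with siLRWD1-5, against 134.5 ± 10.3 CPM with scrambled siRNA (log2 ratio -0.59, adjusted p = 0.00037). SLC7A6 shares exon bases with SLC7A6OS, which unstranded counts cannot separate. Leaving out scrambled replicate 2 gave 13 higher and 2 lower, where 3326 of 13868 genes were higher and 3464 lower. With all libraries, siLRWD1-6 against siLRWD1-5 gave 2 higher and 11 lower among these 23 genes. The background in that comparison was 22.4% higher and 20.9% lower, so lower calls were more frequent here than among all tested genes. The 10 carriers went the other way, with 8 higher and 0 lower. The 10 and this list were chosen with earlier results of these data known, so the contrast is a description. SLC7A6 was 1.82-fold higher, and SLC36A1 and SLC43A2 were 2.33-fold and 3.54-fold lower.

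Of 13 tested carriers of the inner mitochondrial membrane, 1 was higher and 2 lower with siLRWD1-6, and 3 were higher and 4 lower with siLRWD1-5, where 16.6% and 38.8% of all tested genes were called. SFXN1, which brings serine into mitochondria, rose 1.34-fold with siLRWD1-6 and was 1.52-fold lower with siLRWD1-5, a 2.03-fold difference between the siRNAs (adjusted p = 4.1e-07). SLC25A12, an aspartate and glutamate exchanger, was 1.35-fold lower with siLRWD1-6 (adjusted p = 0.0053). With scrambled replicate 2 left out, 3 were higher and 3 lower with siLRWD1-6, where 2115 of 13868 genes were higher and 1838 lower.

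Regulators of carrier genes included transcription factors and kinases of the amino acid and endoplasmic reticulum stress responses. Of 23 tested, 10 were higher and 1 lower with siLRWD1-6 (median log2 fold change 0.33), and 3 were higher and 10 lower with siLRWD1-5 (median -0.10). Among all tested genes, 8.81% were higher and 7.78% lower with siLRWD1-6, and 18.5% higher and 20.3% lower with siLRWD1-5. ATF4 had 478, 454 and 416 CPM with siLRWD1-6, 178, 177 and 162 CPM with siLRWD1-5, against 247, 218 and 242 CPM with scrambled siRNA. Its 3 groups did not overlap, with a 1.91-fold rise with siLRWD1-6 (adjusted p = 1.3e-05), a 1.37-fold lower level with siLRWD1-5 (adjusted p = 0.00056) and a 2.61-fold difference between them (adjusted p = 1.5e-07). CEBPG, a partner of ATF4 on DNA, rose 1.69-fold with siLRWD1-6 and was 2.12-fold higher than with siLRWD1-5. DDIT3 (CHOP) rose 1.72-fold with siLRWD1-6, was 1.74-fold lower with siLRWD1-5 and differed 2.99-fold, higher with siLRWD1-6 than with siLRWD1-5. EIF2AK4 (GCN2), the kinase that senses uncharged tRNA, was 1.43-fold lower with siLRWD1-5, whereas EIF2AK3 (PERK), the kinase of endoplasmic reticulum stress, rose with siLRWD1-6 and with siLRWD1-5, by 1.02 and 0.58 on the log2 scale. MYC, named because of the E-box search and after its values were seen, was not called in any of the 3 comparisons, with log2 fold changes of 0.26 for siLRWD1-6 and 0.16 for siLRWD1-5 against scrambled, and 0.096 between the siRNAs. With scrambled replicate 2 left out the counts were 15 higher and 2 lower with siLRWD1-6, and 5 higher and 9 lower with siLRWD1-5. Of 13868 genes, 2115 were then higher and 1838 lower with siLRWD1-6, and 3326 higher and 3464 lower with siLRWD1-5.

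Genes through which amino acids control the kinase complex mTORC1 had 7 of 35 higher and 4 lower with siLRWD1-6, and 9 higher and 5 lower with siLRWD1-5. The number called with siLRWD1-5 was near the 38.8% of all tested genes, and 16.6% of all were called with siLRWD1-6. SESN2, a leucine sensor, and DDIT4, an inhibitor of mTORC1, were 3.91-fold and 5.14-fold higher with siLRWD1-6 than with siLRWD1-5. MLST8, a subunit of the complex, was 2.31-fold lower with siLRWD1-6 (adjusted p = 6.1e-06). RHEB, the GTPase that activates the complex, was 3.89-fold lower with siLRWD1-5 (adjusted p = 1.5e-07), and GATSL3, the older symbol of the arginine sensor CASTOR1, was 2.07-fold higher. If scrambled replicate 2 was left out, the counts with siLRWD1-5 were 13 higher and 5 lower. Of 13868 genes, 3326 were then higher and 3464 lower.

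Of 31 tested enzymes that make or use these amino acids, 14 were higher and 3 lower with siLRWD1-6 (median 0.19), and 6 were higher and 5 lower with siLRWD1-5 (median -0.05). Of all tested genes, 8.81% were higher and 7.78% lower with siLRWD1-6, and the number called with siLRWD1-5 was near the background of 38.8%. GPT2, a mitochondrial alanine transaminase, rose 1.74-fold with siLRWD1-6 (adjusted p = 3.4e-05). ALDH18A1, an enzyme of proline synthesis, rose with both siRNAs, 1.39-fold with siLRWD1-6 (adjusted p = 0.00017) and 1.40-fold with siLRWD1-5 (adjusted p = 3.7e-05). BCAT2 and ARG2, which break down branched-chain amino acids and arginine in mitochondria, were 1.56-fold and 1.58-fold lower with siLRWD1-5. BCAT1, the cytosolic branched-chain transaminase, was 1.54-fold higher with siLRWD1-6 than with siLRWD1-5 (adjusted p = 5.8e-06). If scrambled replicate 2 was left out, the counts with siLRWD1-5 were 6 higher and 12 lower. Of 13868 genes, 3326 were then higher and 3464 lower.

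**Figure D4:**
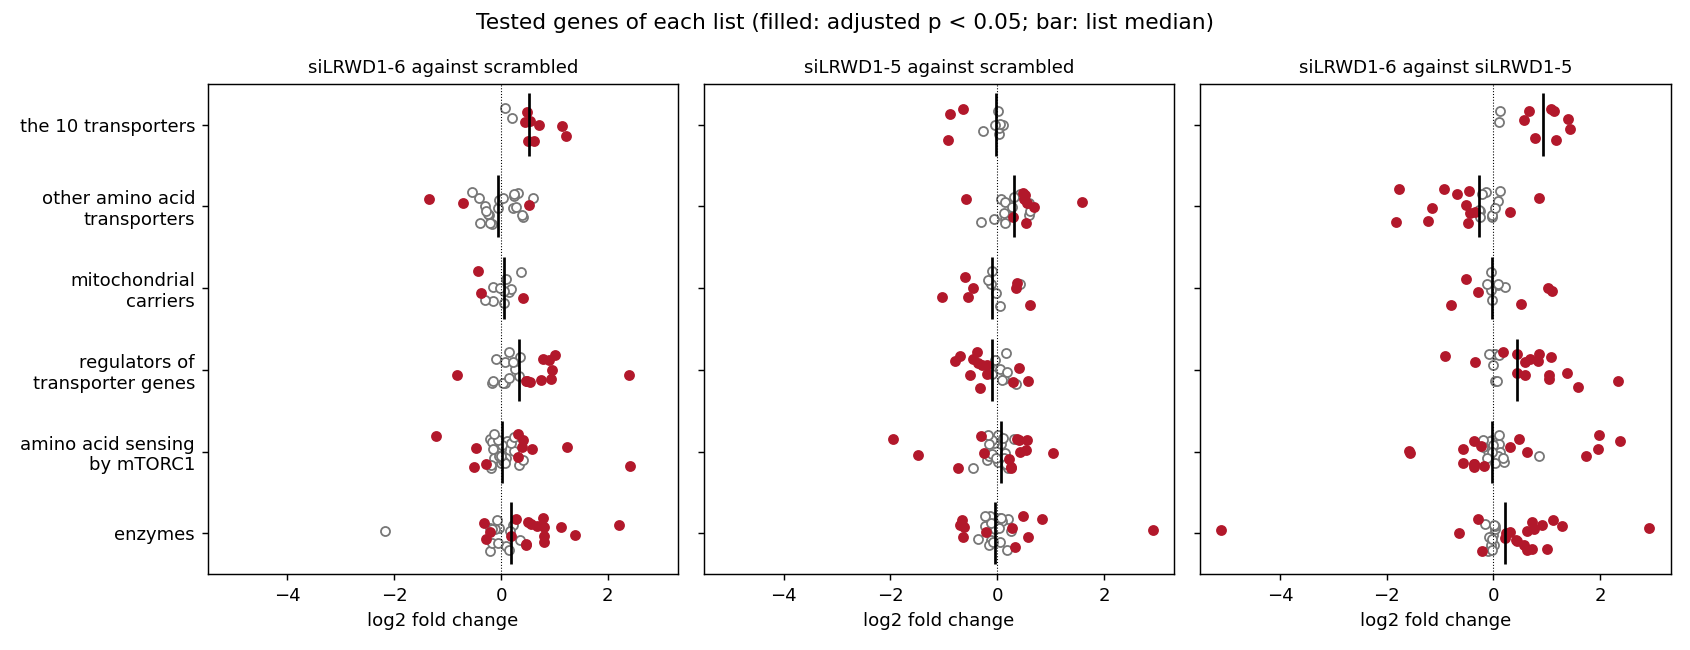
Log2 fold changes of the tested genes in the 10 transporters and in 5 related gene lists, for siLRWD1-6 against scrambled, siLRWD1-5 against scrambled and siLRWD1-6 against siLRWD1-5; each point is 1 gene, filled points passed an adjusted p of 0.05, and the bar is the list median. The transporters have a median of 0.53 with siLRWD1-6, whereas the other amino acid transporters have a median of -0.06 there and 0.31 with siLRWD1-5. The lists were chosen with earlier results of these data known.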

How the data were processed

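The authors deposited whole-number counts of reads for each gene symbol in the 9 libraries, without normalization. The submitters' processing notes name bcl2fastq 1.8.4, TopHat2 2.0.10, HTSeq 0.5.4p3 and hg19. Which annotation and strand option the counting used is not given in the sources used here, and the TruSeq v2 kit named in the labels' protocols does not mark strand.

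Genes were filtered with filterByExpr, scaled by TMM and fitted with edgeR 4.0.16 (R 4.3.3, robust quasi-likelihood, group as the only term, all libraries), with p-values adjusted by Benjamini and Hochberg over 13648 genes at 0.05. SEs come from the F statistic. The fit was tested on simulated data. Alternatives used RLE, other filters, DESeq2 1.42.0, limma-voom (limma 3.58.1), the replicate number as a block, fewer groups, and each library left out. Added after the data were seen were unscaled library sizes, only replicates 1 and 3, and coding lengths.

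The 10 genes, the motifs and the lists were chosen with earlier results of these data known. Named genes are the 10, LRWD1, up to 4 called genes per list and comparison with the smallest p, and the 5 most similar profiles. Reference exon lengths and promoters are of GRCh38, so no hg19 coordinates are given. The labels give each library of a group a series number, called the replicate number here. Same-numbered libraries deviated together (r from 0.106 to 0.404) in both comparisons with siLRWD1-5. In siLRWD1-6 against scrambled r was 0.312, 0.259 and 0.0304. The labels do not say that same-numbered libraries share an experiment, so the main fit did not use the numbers as pairs. These r do not exclude pairing, and the fit with the number as a block is given below. A result on a further gene is not reported here.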

Additional observations from a re-analysis of the deposited data

How the results depend on the processing

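In 18 alternative settings per comparison, the log2 fold changes of the 10 carriers kept their direction and their side of the threshold in 506 of 540 cases. With siLRWD1-6 against scrambled, 7 to 10 carriers were called with 1 library left out, all higher. The 10 came without scrambled replicate 2. With siLRWD1-5 against scrambled the range was 3 to 5, with 2 higher and 3 lower without scrambled replicate 2. Between the siRNAs it was 8 to 10. The calls over all genes in these settings were 4189 to 6790 with siLRWD1-5 against scrambled and 4685 to 7551 between the siRNAs. The highest of each came without scrambled replicate 2, which also gave the 5 and the 10 carriers. Over all genes, 1248 to 3953 were called with siLRWD1-6 against scrambled with 1 library left out (1248 without siLRWD1-6 replicate 1, 1369 without siLRWD1-6 replicate 2, 3953 without scrambled replicate 2, against 2265), and 3579 with only the libraries numbered 1 and 3, a setting chosen after seeing the data. That setting also gave 5 called carriers with siLRWD1-5, 9 with siLRWD1-6, where SLC43A1 was not called, and 8 between the siRNAs. Over all genes it gave 6462 calls with siLRWD1-5 and 6682 between the siRNAs. The cause was not tested.

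Changes of direction occurred only in genes not called with the given siRNA. With siLRWD1-5, and 1 library left out, the log2 fold change ranged from -0.14 to 0.082 for SLC7A5, -0.12 to 0.24 for SLC7A11, -0.13 to 0.16 for SLC1A4 and -0.16 to 0.24 for SLC6A9. With siLRWD1-6 it ranged from -0.019 to 0.21 for SLC7A5. SLC7A5 with siLRWD1-5 was 0.00596 with no scaling beyond library size and 0.090 with only the libraries numbered 1 and 3, where SLC1A4 was -0.012. Between the siRNAs, SLC7A5 was called in the fit of only these groups (0.12, adjusted p = 0.045), and both SLC7A5 (0.13) and SLC3A2 (0.12) without scrambled replicate 2.

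With the replicate number as a block, 8, 3 and 8 carriers were called with siLRWD1-6, with siLRWD1-5 and between the siRNAs, and 2815, 5925 and 6492 genes in all. The block changed no call among the carriers. Precision is limited by 3 libraries a group, and for SLC6A9 and SLC43A1 also by counts of 88 to 380 per library.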
